A study of Mus musculus with 10 samples.

Results

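The measurements below concern 8 genes at the centre of the PI3K, AKT and mTOR pathway in sorted mouse mammary epithelial cells. The members, Pik3ca, Pik3cb, Pik3r1, Akt1, Akt2, Mtor, Tsc1 and Tsc2, were taken from a fixed list of symbols and looked up in the deposited table of raw read counts, which holds 24594 genes under Entrez identifiers. All 8 were found, each under its own identifier, and all 8 passed the filter on low counts. Bulk RNA-seq was carried out on luminal cells, which line the mammary ducts, and basal cells, the contractile layer around them,, with 5 libraries of each. The cells came from virgin C57BL/6J mice of wild-type genotype that received no treatment named in the labels, and the labels give no age for them (the methods give a single range of weeks for adult mice of the whole study). Glands were dissociated with enzymes and the cell types were separated by flow cytometry on EpCAM and CD49f (the study's methods add lineage antibodies to TER-119, CD31 and CD45 against blood and endothelial cells), so that each group is a sorted gate that can hold several cell states. The cell type label, the source name and the letter in the library description go together in all 10 libraries, but the titles name the other cell type, and the cell type label was used.

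PI3K is a lipid kinase that is recruited to activated growth factor receptors. A catalytic subunit (the products of Pik3ca and Pik3cb are the widely expressed ones) is held and stabilised by a regulatory subunit such as that encoded by Pik3r1, and the lipid it makes brings AKT kinases to the plasma membrane. AKT phosphorylates TSC2, which with TSC1 restrains the GTPase RHEB, and RHEB switches on mTOR, a kinase that promotes protein synthesis and growth and holds back autophagy. PIK3CA is among the genes most often mutated in human breast cancer, and AKT signalling takes part in the growth and milk production of the mammary gland. Most of this pathway is controlled by phosphorylation, which transcript levels do not measure.

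Luminal library totals ranged from 13203146 to 17565471 counts and basal totals from 13676558 to 17998165. Levels are given as CPM, counts relative to the library size, on library totals scaled by edgeR's TMM factors. In this fit 9462 of 14609 genes tested passed an adjusted p of 0.05 (64.8%), the median log2 fold change over all genes was 0.05 and its median size was 0.81. The markers of the labelled cell types followed the cell type label, with all 9 luminal markers higher in luminal libraries (summed level 9844 to 13959 CPM against 986 to 1472) and all 7 basal markers higher in basal libraries (10378 to 14863 CPM against 26.5 to 78.9). Markers of other cells were low. Summed fibroblast markers reached 23.7 to 111 CPM in luminal and 25.6 to 41.1 CPM in basal libraries, and the T cell gene Cd3e and the adipocyte gene Adipoq were at 0 in every library. Summed endothelial markers were at 1.69 to 4.06 CPM in luminal and 6.56 to 14.4 CPM in basal libraries, adipocyte markers at 0.611 to 2.26 and 3.95 to 8.88 CPM, and erythroid markers at 4.74 to 18.3 and 0.546 to 2.28 CPM. Leukocyte markers summed to 4.13 to 11.3 and 12.2 to 34.4 CPM, a direction carried by Cd74 (mean 2.62 CPM in luminal and 20.7 CPM in basal cells), whereas Lyz2 and Cd52, the other two tested, were called higher in luminal cells. The part of these markers in the results below was not tested.

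The catalytic subunits changed places between the cell types. Pik3ca was 1.93-fold higher in basal cells and Pik3cb was 2.07-fold higher in luminal cells, and these were the only members whose luminal and basal libraries did not overlap. Pik3r1 was also called, 1.66-fold higher in basal cells but with overlapping libraries. Akt1, Akt2, Mtor, Tsc1 and Tsc2 did not pass the test. In all, 3 of the 8 members (37.5%) were called, against 64.8% of all genes tested. The 1 member called higher in luminal cells stands beside a background of 33.6%, and the 2 called higher in basal cells beside 31.2%. The calls on Pik3r1, Akt2 and Tsc2 depended on the processing, and between 2 and 4 members were called over all settings. With upper-quartile factors and with library totals only, 3 members were called higher in luminal cells (Pik3cb, Akt2 and Tsc2) and 1 in basal cells (Pik3ca). With the GC and length offsets the counts were 2 (Pik3cb and Tsc2) and 1 (Pik3ca). Of the 14609 genes tested, 5439 and 4051 were called higher in luminal and basal cells with upper-quartile factors. Library totals only gave 5705 and 3705, and the offsets 4642 and 4619. The 2 members without overlap are to be read against 50.1% of all genes tested. The median log2 fold change of the members was 0.08, and the median of its size was 0.29 against 0.81 over all genes. In bulk samples fewer cells that express a gene and less RNA per cell cannot be told apart. Nothing in the labels says that the libraries are separate animals, so p-values measure the spread between these libraries.

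The promoters of Pik3ca and Pik3cb are shown because these members moved in opposite directions. Pik3ca (Entrez 18706) lies on the plus strand at chr3:32397065-32466112 and Pik3cb (Entrez 74769) on the minus strand at chr9:99038402-99140235 of GRCm38.p6, the assembly behind mm10. Each sequence runs 5′ to 3′ on the strand of the gene from upstream of the RefSeq start to just inside the gene, at chr3:32396815-32397114 and chr9:99140162-99140461. Capitals mark the GC box GGGCGG and the ETS core CCGGAAGT, searched on both strands (CCGCCC and ACTTCCGG on the other).
Pik3ca: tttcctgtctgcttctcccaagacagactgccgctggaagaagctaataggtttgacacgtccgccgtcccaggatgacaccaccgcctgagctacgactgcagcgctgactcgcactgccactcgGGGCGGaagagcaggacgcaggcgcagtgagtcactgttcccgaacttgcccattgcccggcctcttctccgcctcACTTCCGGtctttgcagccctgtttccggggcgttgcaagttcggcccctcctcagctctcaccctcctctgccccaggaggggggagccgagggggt
Pik3cb: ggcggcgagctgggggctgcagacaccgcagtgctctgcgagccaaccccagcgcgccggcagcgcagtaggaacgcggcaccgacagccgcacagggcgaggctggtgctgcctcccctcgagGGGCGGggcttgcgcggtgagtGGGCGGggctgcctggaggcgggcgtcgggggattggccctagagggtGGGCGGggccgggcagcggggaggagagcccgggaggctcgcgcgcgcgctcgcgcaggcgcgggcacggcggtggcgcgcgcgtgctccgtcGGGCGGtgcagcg
The Pik3cb window holds 4 GC boxes, 44 CpG dinucleotides and 79.0% G and C, and the Pik3ca window holds 1 GC box, 1 ETS core, 20 CpG dinucleotides and 63.3% G and C. Of 32851 RefSeq promoter windows of this length, 35.7% hold a GC box and 3.89% hold the ETS core. A match of letters is a description and not a binding site.

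Pik3ca encodes the catalytic subunit that most growth factor receptors use. Its level was 70.5, 46.9, 48.2, 54.7 and 58.2 CPM in luminal libraries 1 to 5 and 114, 110, 108, 97.5 and 108 CPM in basal libraries 1 to 5. Every basal library was thus above every luminal library, and the basal values lay close together. The means were 55.7 ± 9.48 CPM in luminal and 108 ± 6.09 CPM in basal cells (SD, n = 5 each), a log2 fold change of -0.95 (SE 0.13, 95% interval -1.24 to -0.66, edgeR adjusted p = 2.53e-05). Luminal was lower in 5 of 5 same-numbered pairs, which any pairing gives where groups do not overlap. With offsets for GC content and transcript length the log2 fold change was -0.49 (edgeR adjusted p = 0.00375), and with the replicate block added it was -0.50. Of all genes tested, 56.6% had a smaller absolute log2 fold change than Pik3ca.

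Pik3cb encodes the other widely expressed catalytic subunit, which can also be activated through G protein-coupled receptors. It was measured at 80.2, 87.4, 72.9, 61.3 and 87.0 CPM in luminal libraries 1 to 5 and at 38.1, 34.5, 31.5, 27.9 and 55.7 CPM in basal libraries 1 to 5. The groups did not overlap, but basal library 5 came close to the lowest luminal library. The means of 77.8 ± 11.0 and 37.5 ± 10.8 CPM (SD, n = 5 each) gave a log2 fold change of 1.05 (SE 0.19, 95% interval 0.65 to 1.45, edgeR adjusted p = 0.000183). That luminal was higher in 5 of 5 pairs follows from the lack of overlap. Absolute log2 fold changes were smaller in 60.5% of all genes tested.

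**Figure D1:**
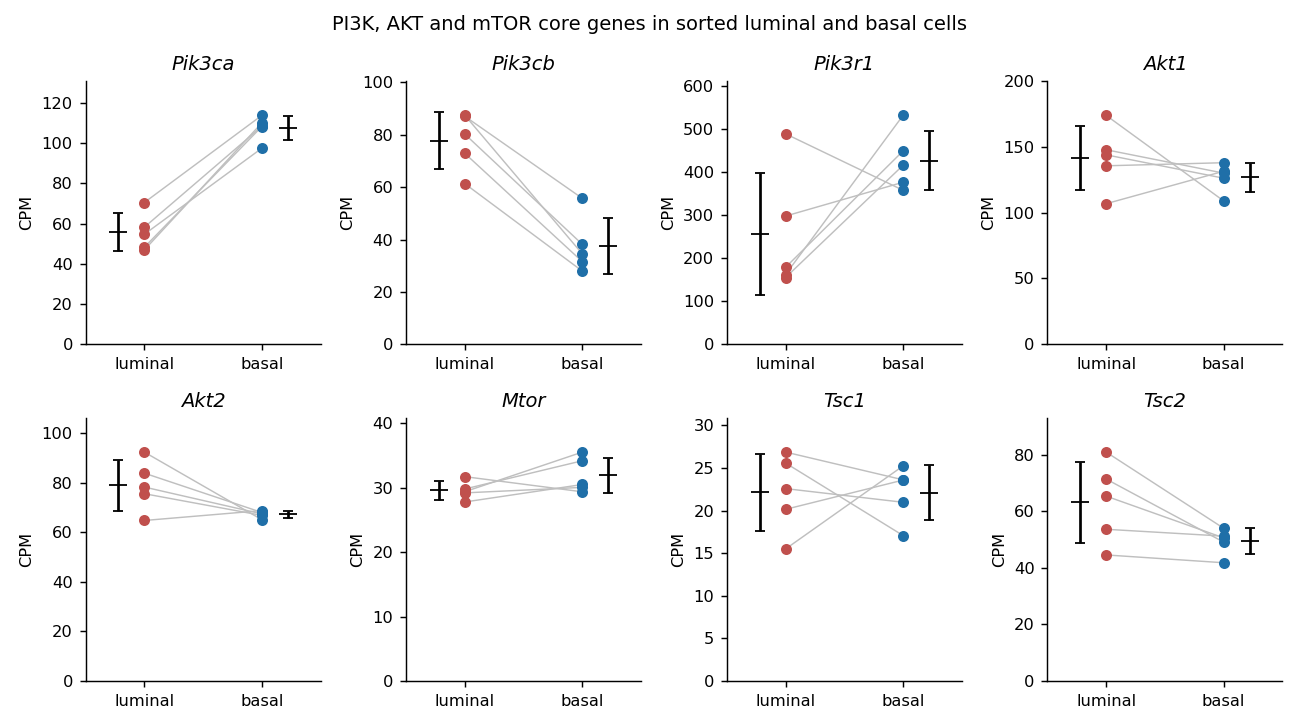
Levels of the 8 members in CPM (y axis, linear, a scale for each gene) in luminal and basal libraries. Points are single libraries, grey lines join libraries of the same replicate number, and bars give the mean and SD (n = 5). Pik3ca and Pik3cb separate the cell types in opposite directions, with 0 of 5 and 5 of 5 lines higher on the luminal side, and the other 6 members overlap.

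A ratio taken within a library does not depend on the scaling between libraries. The ratio of Pik3ca to Pik3cb counts ranged from 0.536 to 0.892 in luminal libraries (median 0.668) and from 1.95 to 3.50 in basal libraries (median 3.20). More Pik3cb than Pik3ca reads were therefore counted in every luminal library and more Pik3ca than Pik3cb reads in every basal library. On the log2 scale the ratio was -0.49 ± 0.31 in luminal and 1.56 ± 0.35 in basal libraries (SD, n = 5 each), a difference of -2.05 (two-sided exact permutation test, p = 0.00794, the smallest that 5 against 5 can give, adjusted p = 0.0317 over 4 ratios). Pik3ca and Pik3cb were each without overlap, in opposite directions, so the ratio had to separate fully. Its p is therefore not separate support for the difference. With the GC and length offsets the difference was -1.96 (exact permutation test, adjusted p = 0.0317). Taken as 5 pairs, the difference was not called (exact sign-flip test, adjusted p = 0.25, with 0.0625 the smallest p it can give), nor was the difference of medians (-2.26, exact permutation test, adjusted p = 0.190). The ratios were fully separated, so both tests gave the smallest p they can, and these missing calls carry no information. Basal library 5 had the lowest basal log2 ratio, 0.96 against 1.58 to 1.81 in the other 4.

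Reads per length allow the level of one gene to be set against that of another. Per kilobase of the longest transcript, Pik3ca made up 33.7% ± 4.60 of the summed level of Pik3ca, Pik3cb and Pik3cd in luminal cells and 66.3% ± 5.16 in basal cells (SD, n = 5 each). Pik3cb took 64.5% ± 4.99 in luminal and 31.2% ± 5.42 in basal cells. Pik3cd, the catalytic subunit best known from leukocytes, held 1.80% ± 1.24 and 2.52% ± 1.18. When the coding length was used instead, the share of Pik3ca was 41.1% in luminal and 73.2% in basal cells. The larger share belonged to Pik3cb in luminal and to Pik3ca in basal cells with either length.

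**Figure D2:**
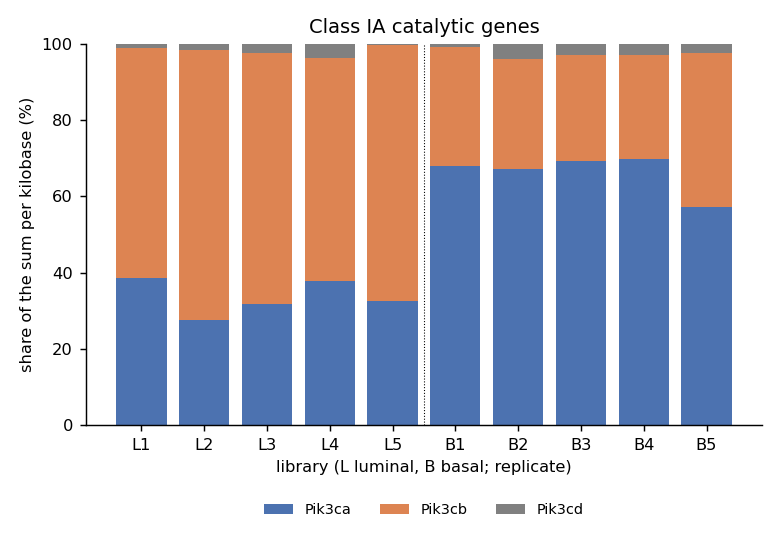
Shares of the summed level per kilobase (y axis, percent) in luminal libraries 1 to 5 (L1 to L5) and basal libraries 1 to 5 (B1 to B5), for the catalytic PI3K subunits Pik3ca, Pik3cb and Pik3cd. Pik3ca averages 33.7% in luminal and 66.3% in basal libraries.

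Pik3r1 (Entrez 18708, chr13:101680761-101768217, minus strand) encodes the main regulatory subunit, which stabilises the catalytic subunit and restrains it until a receptor is bound. Its level was 489, 162, 179, 155 and 298 CPM in luminal libraries 1 to 5 and 358, 532, 449, 416 and 377 CPM in basal libraries 1 to 5. Luminal library 1 lay above 4 of the 5 basal libraries, and the other 4 luminal libraries lay below all of them. The means were 257 ± 143 CPM in luminal and 426 ± 68.9 CPM in basal cells (SD, n = 5 each), with a log2 fold change of -0.73 (SE 0.29, 95% interval -1.35 to -0.12, edgeR adjusted p = 0.0367) and luminal lower in 4 of 5 pairs. Without luminal library 1 it was -1.09 (edgeR adjusted p = 0.000441). The edgeR call was lost with upper-quartile factors (-0.62, adjusted p = 0.0647), with plain library totals (-0.55, adjusted p = 0.102) and with the GC and length offsets (-0.36, adjusted p = 0.263). It was also lost when luminal library 2, 3 or 4 or basal library 2 or 3 was left out (-0.71 to -0.60, edgeR adjusted p from 0.0612 to 0.0870).

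The luminal spread of Pik3r1 was set beside 3 genes of luminal progenitors, chosen after its values were seen. Cd14 measured 2061, 461, 482, 488 and 1184 CPM in luminal libraries 1 to 5. Kit, a receptor tyrosine kinase, measured 288, 148, 129, 138 and 208 CPM, and Elf5, a transcription factor of the luminal progenitor and alveolar lineage, 127, 89.6, 66.7, 55.7 and 122 CPM. In each of the 4 genes library 1 was the highest and library 5 the next. This order was not particular to progenitor genes. Pik3ca had it, as did Fbxo32 (75.4 and 49.2 CPM in luminal libraries 1 and 5), a gene called higher in basal cells. Akt1 and Akt2 were highest in library 1 but next in library 3, and the other members were highest elsewhere. The fibroblast marker Dcn was also highest in library 1, at 95.1 CPM against 11.6 to 39.5 CPM in the other 4. The part of these differences between libraries in the result for Pik3r1 was not tested.

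**Figure D3:**
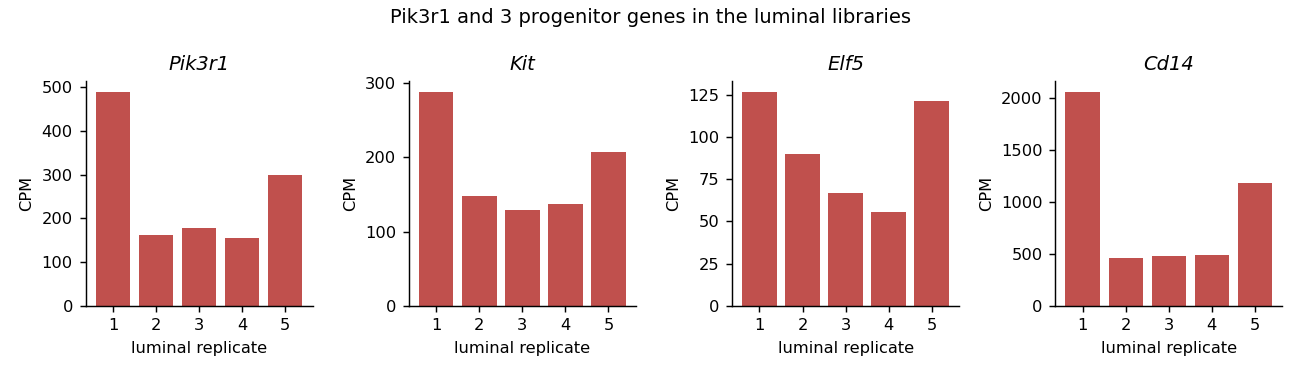
Levels in CPM (bars from 0, a scale for each gene) of Pik3r1, Kit, Elf5 and Cd14 in luminal replicates 1 to 5. Replicate 1 is highest and replicate 5 next in every panel, with Pik3r1 at 489 and 298 CPM. Pik3ca and Fbxo32, which are not drawn here, had the same order.

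The level of Pik3r1 relative to Pik3ca was not shown to differ. The log2 ratio of Pik3ca to Pik3r1 counts was -2.07 in luminal and -1.97 in basal libraries, a difference of -0.09 (exact permutation test, p = 0.746, adjusted p = 0.746). Without luminal library 1 this difference was 0.09.

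The AKT kinases phosphorylate the substrates of the pathway. Akt1 (Entrez 11651, chr12:112653821-112674884, minus strand), the broadly acting form, was present at 174, 136, 148, 107 and 144 CPM in luminal libraries 1 to 5 and at 109, 138, 130, 132 and 126 CPM in basal libraries 1 to 5. Luminal libraries held both the highest and the lowest value. The means of 142 ± 24.2 and 127 ± 10.9 CPM (SD, n = 5 each) gave a log2 fold change of 0.16 (95% interval -0.14 to 0.46, edgeR adjusted p = 0.338). It ranged from 0.090 to 0.24 with 1 library left out. Other processing gave 0.026 (block and offsets together) to 0.35 (library totals only, edgeR adjusted p = 0.0610), and no setting called it.

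Akt2 (Entrez 11652, chr7:27591552-27640826, plus strand), the form best known for insulin-stimulated glucose uptake, measured 92.5, 64.8, 84.0, 75.7 and 78.4 CPM in luminal libraries 1 to 5. In basal libraries 1 to 5 it measured 65.2, 68.8, 68.1, 66.9 and 67.5 CPM, the narrowest spread of any member. All luminal libraries except library 2 were above all basal ones. The log2 fold change was 0.23 (95% interval -0.03 to 0.49, edgeR adjusted p = 0.109), from means of 79.1 ± 10.2 and 67.3 ± 1.39 CPM (SD, n = 5 each). Akt2 passed the edgeR test with upper-quartile factors (0.35, adjusted p = 0.0183), with plain library totals (0.42, adjusted p = 0.0119) and without luminal library 2 (0.31, adjusted p = 0.0375).

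The balance of Akt1 and Akt2 within a library was not shown to differ. The log2 ratio averaged 0.83 in luminal and 0.91 in basal libraries, a difference of -0.08 (exact permutation test, p = 0.540, adjusted p = 0.720). With the GC and length offsets the difference was -0.18 (exact permutation test, adjusted p = 0.270).

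Mtor (Entrez 56717, chr4:148448582-148557685, plus strand) encodes the kinase of both mTOR complexes. Its level was 29.2, 29.4, 29.8, 27.8 and 31.7 CPM in luminal libraries 1 to 5 and 30.1, 35.5, 34.2, 30.5 and 29.4 CPM in basal libraries 1 to 5. The groups overlapped. Means of 29.6 ± 1.42 and 31.9 ± 2.75 CPM (SD, n = 5 each) gave a log2 fold change of -0.11 (95% interval -0.38 to 0.16, edgeR adjusted p = 0.455). The sign of this difference turned with upper-quartile factors (0.012), with library totals only (0.081) and with the GC and length offsets (0.15), and no setting called it.

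Tsc1 (Entrez 64930, chr2:28640993-28691172, plus strand) encodes hamartin, which stabilises the complex that holds RHEB inactive. It measured 20.1, 26.9, 22.6, 25.6 and 15.5 CPM in luminal libraries 1 to 5 and 23.6, 23.6, 21.0, 17.1 and 25.2 CPM in basal libraries 1 to 5. Both means were 22.1 CPM (SD 4.55 in luminal and 3.20 in basal cells, n = 5 each). Its log2 fold change of 0.00 (95% interval -0.38 to 0.38, edgeR adjusted p = 0.992) was smaller in size than those of all but 0.130% of genes tested. Its sign turned with several settings, and with the GC and length offsets it was 0.33 (edgeR adjusted p = 0.124), but no setting called it.

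Tsc2 (Entrez 22084, chr17:24595816-24632676, minus strand) encodes tuberin, the partner that acts on RHEB and carries the AKT phosphorylation sites. It measured 65.4, 81.0, 71.5, 44.6 and 53.7 CPM in luminal libraries 1 to 5 and 50.6, 54.0, 49.1, 41.8 and 51.2 CPM in basal libraries 1 to 5. Luminal was higher in 5 of 5 pairs, although luminal libraries 4 and 5 lay within the basal range. The log2 fold change was 0.36 (SE 0.16, 95% interval 0.01 to 0.71, edgeR adjusted p = 0.0668), from means of 63.2 ± 14.4 and 49.4 ± 4.58 CPM (SD, n = 5 each). Tsc2 passed the test with upper-quartile factors (0.48, edgeR adjusted p = 0.0166), library totals only (0.56, edgeR adjusted p = 0.0138), the GC and length offsets (0.50, edgeR adjusted p = 0.0064) and without luminal library 4 (0.46, edgeR adjusted p = 0.0125).

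Exons of Tsc2 overlap those of Pkd1, a gene on the opposite strand, over 693 of 9620 bases (7.20%), and the strand setting of the counting is not stated. Reads in this stretch could therefore have been given to either gene. Pkd1 moved the other way, with 58.3 ± 15.5 CPM in luminal and 179 ± 37.2 CPM in basal cells (SD, n = 5 each, log2 fold change -1.62, edgeR adjusted p = 9.74e-06). The log2 ratio of Tsc1 to Tsc2 counts was -1.51 in luminal and -1.17 in basal libraries, a difference of -0.34 (exact permutation test, p = 0.103, adjusted p = 0.206). Luminal library 4 stood apart in this ratio, and without it the difference was -0.52 (exact permutation test, adjusted p = 0.0159). With the GC and length offsets and all libraries the difference was -0.18 (exact permutation test, adjusted p = 0.508). Taken as pairs, it was not called either (exact sign-flip test, adjusted p = 0.5), but this test could not have called it, since its smallest p is 0.0625.

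**Figure D4:**
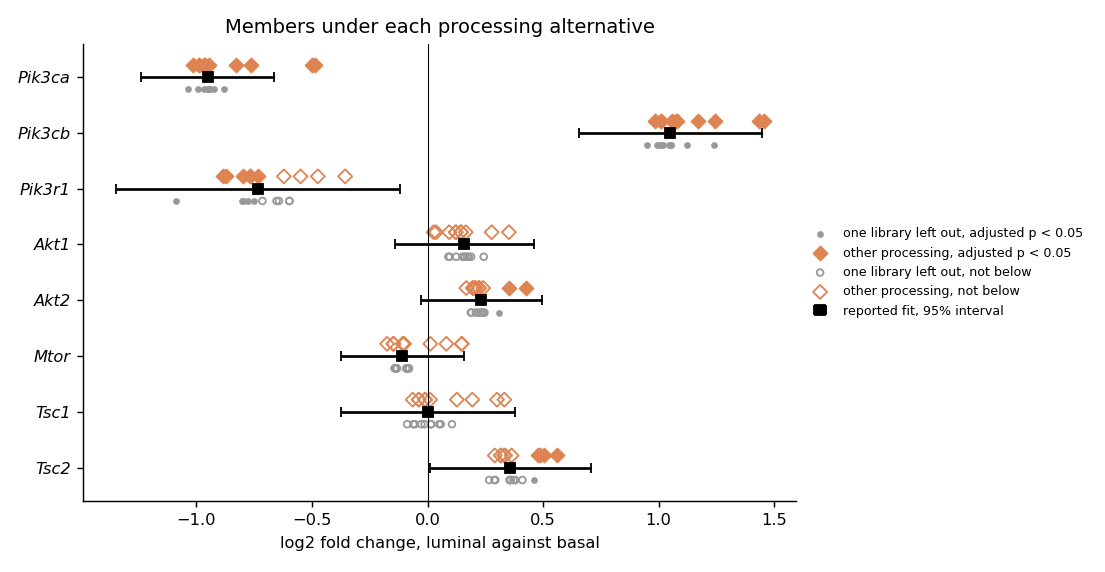
Log2 fold changes, luminal against basal (x axis), of the 8 members under each setting. Black marks give the reported edgeR fit with its 95% interval, diamonds other processing and circles fits with 1 library left out, and filled marks have an adjusted p under 0.05. Marks of Pik3ca all lie below 0 and are filled and those of Pik3cb all lie above 0 and are filled, whereas Pik3r1, Akt2 and Tsc2 have both filled and open marks.

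Levels per kilobase were ordered on the longest transcript of each gene. In luminal cells it ran from Akt1 (52.7 CPM per kilobase) through Pik3r1 (36.1), Akt2 (17.4), Pik3cb (12.0), Tsc2 (10.1), Pik3ca (6.24) and Mtor (3.45) to Tsc1 (2.87). Neighbours that overlapped between libraries were Akt1 and Pik3r1, Pik3cb and Tsc2, Tsc2 and Pik3ca, and Mtor and Tsc1. In basal cells it ran from Pik3r1 (59.95 CPM per kilobase) through Akt1 (47.2), Akt2 (14.8), Pik3ca (12.1), Tsc2 (7.88), Pik3cb (5.79) and Mtor (3.73) to Tsc1 (2.87). Here only Pik3r1 and Akt1, and Tsc2 and Pik3cb, overlapped. The order depended on the length used. On the mean transcript length Tsc2 lay above Pik3cb in luminal cells (31.2 and 19.2) and, without overlap, above Pik3ca in basal cells (24.4 and 19.4), and basal Pik3cb (9.26) lay below Mtor (10.3). On the coding length both Pik3ca and Pik3cb lay above Tsc2 in both cell types, Mtor lay below Tsc1, and luminal Pik3r1 (118) lay above Akt1 (98.4).

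The genes whose levels over the 10 libraries were most like those of Pik3cb were Dnmbp, Aftph and 4833439L19Rik. Their root mean square distances to it on centred log2 CPM were 0.174, 0.188 and 0.195, and their log2 fold changes were 1.28, 1.07 and 1.28. For Pik3ca the nearest were Ubqln2, Hnrnph2 and Naa50, at distances of 0.0931, 0.0944 and 0.0995 and with log2 fold changes of -0.87, -0.91 and -1.02.

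A wider set of 104 pathway genes in 8 lists was counted to place the members. Of these, 99 were tested, 31 were higher in luminal cells, 30 were higher in basal cells and 38 were not called. The share called was 61.6% against 64.8% of all genes tested, and 50 of the 99 did not overlap between the groups, near the 50.1% of all genes tested. The balance of directions moved with the scaling, to 36 luminal and 27 basal calls with upper-quartile factors and 39 and 26 with library totals only. With the GC and length offsets it was 36 and 29. Over all genes tested, luminal and basal calls went from 4904 and 4558 to 5439 and 4051 with upper-quartile factors. Library totals only gave 5705 and 3705, and the offsets 4642 and 4619. The luminal excess under upper-quartile factors and library totals was thus shared by all genes, which stayed near balance with the offsets. The median log2 fold change of the 99 was -0.11 and its median size 0.64, against 0.05 and 0.81 over all genes.

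Upstream of PI3K, 1 of 6 receptors and adaptors was higher in luminal cells, 2 were higher in basal cells and 3 were not called, beside 64.8% called over all genes. With library totals only, and with the GC and length offsets, 5 of the 6 were called. Irs2, an adaptor of the insulin and IGF receptors, was at 60.3 CPM in luminal and 890 CPM in basal cells (log2 fold change -3.88, SE 0.23, edgeR adjusted p = 3.37e-09). Igf1r, the IGF receptor itself, was at 43.5 and 479 CPM (-3.46, SE 0.15, edgeR adjusted p = 3.18e-10). Gab2, a docking protein that binds the regulatory subunit, was at 29.3 and 6.02 CPM (2.28, SE 0.22, edgeR adjusted p = 4.79e-07). The largest changes upstream thus exceeded those of any member.

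Among the other PI3K subunits, 6 of the 9 tested were higher in luminal cells and 3 were not called, with a median log2 fold change of 0.87. Of all genes tested, 33.6% were higher in luminal cells and 64.8% were called in either direction, and 66.7% of this list were called. Pik3cg, the catalytic subunit used by G protein-coupled receptors in leukocytes, had 135 to 198 counts in the luminal libraries. Basal libraries held 5 counts in replicate 1 and 0 in the other 4 (10.9 against 0.0624 CPM, edgeR adjusted p = 1.26e-07). Of the leukocyte markers, Lyz2 (1.31 against 0.395 CPM) and Cd52 (4.65 against 1.13 CPM) were higher in luminal cells like Pik3cg, Cd74 was higher in basal cells, Ptprc averaged 0.126 and 0.0261 CPM and Cd3e was at 0. Their part in the result for Pik3cg was not tested. Pik3c2b and Pik3c2a, class II lipid kinases, had log2 fold changes of 1.52 and 0.87 (edgeR adjusted p = 8.23e-05 and 5.06e-05). With the GC and length offsets that of Pik3c2a was 1.33. Pik3r3, a regulatory subunit, was at 23.4 CPM in luminal and 9.03 CPM in basal cells (1.38, SE 0.20, edgeR adjusted p = 3.83e-05), a direction opposite to that of Pik3r1.

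Lipid phosphatases and PI3K inhibitors were all called among the 5 tested, of which 3 were higher in luminal cells and 2 in basal cells, beside 64.8% called over all genes. The number called was 4 of 5 with upper-quartile factors, library totals only, the offsets with and without the block, and 6 of the 10 fits that left out a library. Inppl1, which encodes the phosphatase SHIP2, was at 472 CPM in luminal and 59.1 CPM in basal cells (log2 fold change 2.997, SE 0.22, edgeR adjusted p = 4.04e-08). Pik3ip1, a membrane protein that inhibits PI3K, was also higher in luminal cells, at 97.3 and 47.9 CPM (1.02, edgeR adjusted p = 4.03e-05), as was the phosphatase gene Inpp5k, at 33.3 and 22.1 CPM (0.59, edgeR adjusted p = 0.00422). Inpp4a was lower in luminal cells, at 11.4 and 24.6 CPM (-1.11, edgeR adjusted p = 6.36e-05).

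Of the AKT partners, 1 of 5 tested was higher in luminal cells, 1 was higher in basal cells and 3 were not called, beside 64.8% called over all genes tested. The genes that passed were Them4 (2.97 and 5.91 CPM, log2 fold change -0.996, edgeR adjusted p = 0.00503) and Tbc1d4, an AKT substrate of glucose transporter traffic (26.1 and 16.2 CPM, 0.69, edgeR adjusted p = 0.00277).

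Partners of mTOR included genes that changed although Mtor did not pass the test. In this list 4 of 11 were higher in luminal cells, 2 higher in basal cells and 5 not called, so that 54.5% were called against 64.8% of all genes tested. Rheb, the GTPase that activates mTOR and is held back by the TSC complex, was at 94.0 CPM in luminal and 219.5 CPM in basal cells (log2 fold change -1.22, SE 0.16, edgeR adjusted p = 9.61e-06). Mlst8, a subunit of both mTOR complexes, was at 17.4 and 8.80 CPM (0.98, SE 0.17, edgeR adjusted p = 0.000139), and Prr5l, a partner of the second complex, at 6.43 and 2.98 CPM (1.11, edgeR adjusted p = 0.0099). Rictor, the defining subunit of the second complex, was at 61.4 and 87.5 CPM (-0.51, edgeR adjusted p = 0.0153). The call on Rictor was lost with upper-quartile factors (-0.39, edgeR adjusted p = 0.0569), library totals only (-0.31, edgeR adjusted p = 0.147) and the GC and length offsets (-0.04, edgeR adjusted p = 0.825).

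Of the genes of amino acid and energy sensing, 11 of 31 were higher in luminal cells, 10 were higher in basal cells and 10 were not called. The 67.7% called is close to the 64.8% of all genes tested. Sesn2, which senses leucine, was at 31.0 CPM in luminal and 278 CPM in basal cells (log2 fold change -3.16, SE 0.22, edgeR adjusted p = 1.88e-08). Ddit4, also known as REDD1 and an activator of the TSC complex, was at 614 and 2941 CPM (-2.26, SE 0.19, edgeR adjusted p = 1.59e-07), and its relative Ddit4l at 1.09 and 12.9 CPM (-3.54, edgeR adjusted p = 6.53e-05). Ddit4l had 0 counts in luminal library 4. Its fitted change ranged from -4.09 to -3.24 with 1 library left out and from -4.14 to -3.35 under the other settings. Prkaa2, a catalytic subunit of the energy sensor AMPK, was higher in luminal cells, at 17.5 and 3.06 CPM (2.51, SE 0.33, edgeR adjusted p = 1.13e-05). Relatives of Sesn2, named after their values were seen, went the other way, with log2 fold changes of 0.40 for Sesn1 (edgeR adjusted p = 0.0471) and 0.74 for Sesn3 (edgeR adjusted p = 0.00205). Of the GATOR1 genes, which also restrain mTOR complex 1 and were likewise named afterwards, Nprl2 (0.51) and Nprl3 (1.51) were called higher in luminal cells and Depdc5 (-1.13) higher in basal cells.

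Effectors of AKT and mTOR were called higher in basal cells for 9 of 21 genes and higher in luminal cells for 2, and 10 were not called, with a median log2 fold change of -0.23. Over all genes tested 31.2% were higher in basal and 33.6% in luminal cells, and 52.4% of this list were called against 64.8%. Gsk3b, a kinase that AKT inhibits, was at 119 CPM in luminal and 328 CPM in basal cells (-1.47, SE 0.16, edgeR adjusted p = 2.07e-06). Ulk1, which starts autophagy, was at 139.7 and 336.8 CPM (-1.27, SE 0.21, edgeR adjusted p = 8.91e-05). Tfe3, a transcription factor of lysosomal genes, had a log2 fold change of -1.10 (edgeR adjusted p = 1.30e-06), and Foxo6 one of -3.35 (1.55 against 15.8 CPM, edgeR adjusted p = 2.30e-06).

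Of the transcripts that FOXO factors are known to drive, 5 of 15 tested were higher in luminal cells, 5 were higher in basal cells and 5 were not called. The 66.7% called is close to the 64.8% of all genes tested. Fbxo32, a ubiquitin ligase of protein breakdown, was at 43.9 CPM in luminal and 1097 CPM in basal cells (log2 fold change -4.64, SE 0.35, edgeR adjusted p = 4.46e-08). Klf15 was at 0.327 and 11.9 CPM (-5.07, SE 0.61, edgeR adjusted p = 5.08e-06), with 0 counts in 2 of the luminal libraries. Its fitted change rests on few counts and ranged from -5.87 to -4.76 with 1 library left out (lowest without luminal replicate 2) and was -6.17 with limma voom. Irs2, given above, is on this list too, and Pdk4, which slows the use of glucose in mitochondria, was at 96.8 and 478 CPM (-2.30, SE 0.39, edgeR adjusted p = 0.000127). Txnip, which restrains glucose uptake, and Gadd45a, a stress response gene, were named after their values were seen. They were higher in luminal cells, at 4207 and 1134 CPM (1.89, edgeR adjusted p = 6.53e-07) and at 455 and 113 CPM (2.004, edgeR adjusted p = 5.06e-07).

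**Figure D5:**
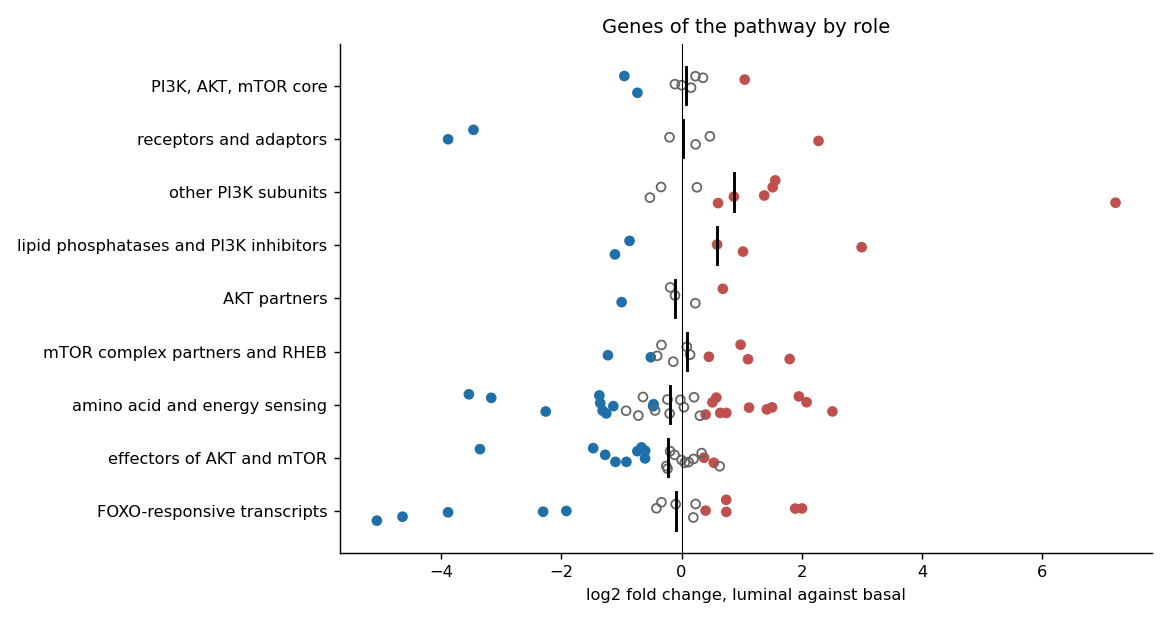
Log2 fold changes, luminal against basal (x axis), of the tested pathway genes grouped by role. Red points were called higher in luminal and blue points higher in basal cells at an adjusted p under 0.05, open points were not called, and black bars give the median of each list. The other PI3K subunits have the highest median (0.87) and the effectors the lowest (-0.23).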

How the data were processed

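The deposited values are raw counts of reads for each gene, not normalized by the authors. The submitters' processing notes name cutadapt 4.2, Bowtie2 2.3.5.1 and mm10. The study's methods describe trimming with cutadapt and alignment to mm10 with another version of Bowtie2, and which version made these counts is not settled. Bowtie2 does not split reads across splice junctions. The counting tool, its annotation and its strand setting are not given in the sources used here. Of 24594 Entrez identifiers, 24570 were matched to a symbol in RefSeq GRCm38.p6. Transcript lengths, GC content and exon overlaps came from GENCODE M21.

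Groups follow the cell type label. Genes were filtered with filterByExpr (minimum count 10, minimum total 15), which kept 14609 and dropped 9985. Counts were scaled by TMM and compared with edgeR's quasi-likelihood test (edgeR 4.0.16, R 4.3.3), with Benjamini-Hochberg adjustment over all genes tested and a threshold of 0.05. Log2 fold changes are luminal against basal, and SE is their absolute value over the square root of F. Ratios of 2 members within a library were compared by a two-sided exact permutation test. The fits were tested on simulated data, and the outcome of that test is not given here.

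The members, lists and tests were chosen with earlier results of these data known. Named genes are the members, up to 4 per list with the largest absolute log2 fold change (adjusted p under 0.05, a mean of 5 CPM or more where higher), and the 3 genes most like the members with the largest positive and largest negative change, on log2(CPM + 0.5). Other genes named were chosen after their values were seen. Some genes of the pathway are not reported here, and the lists were counted without them.

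Alternatives were DESeq2 size factors, upper-quartile factors, library totals only, no filter, at least 10 counts in every library, DESeq2 1.42.0, limma voom 3.58.1, the replicate number as a block, offsets for GC content and length, both together, and each library left out. The pairing comes from the number that opens the library description, which same-numbered libraries have in common. The labels do not say what this number stands for, and reading it as the animal is an assumption. Correlations between same-numbered libraries, in their deviations from the group means, ranged from -0.0952 to 0.149 (mean 0.0345). Between libraries of 1 group, chi-square over its degrees of freedom was at least 15.2 (basal) and 33.3 (luminal), so none was counted as a repeat.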

Additional observations from a re-analysis of the deposited data

Results flagged for a closer look

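Values of 5 libraries of 1 group were examined for a library far from the other 4 (Dixon's test at the 95% level). This was done for 84 sets of values, of which 7 were picked out, where chance alone picks out about 1 in 20. Some sets share genes and libraries, so the 7 are not separate events, and an excess over that rate was not tested.

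Among the members, basal replicate 5 had a low log2 ratio of Pik3ca to Pik3cb, 0.96 against 1.58 to 1.81 in the other basal libraries. In the same library Pik3ca took a low share of the catalytic subunits per length, 57.3% against 67.1% to 69.7%, and Pik3cb stood at 55.7 CPM against 27.9 to 38.1 CPM. Luminal replicate 4 had a high log2 ratio of Tsc1 to Tsc2, -0.80 against -1.79 to -1.59 in the other luminal libraries.

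Among the other pathway genes, Pik3cg stood high in replicate 1 of the luminal libraries (12.3 CPM, others 10.3 to 10.9 CPM) and above 0 only in replicate 1 of the basal libraries (0.312 CPM, 5 counts). With 0 in the other basal libraries, any count in replicate 1 would have been picked out. Basal replicate 1 was also high in Rheb, at 281 CPM against 198 to 207 CPM, and low in Mlst8, at 6.74 CPM against 9.13 to 9.41 CPM.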

How the results depend on the processing

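Pik3ca and Pik3cb kept their direction and their call under every alternative run, and the differences in Akt1, Mtor and Tsc1 were called under none. Upper-quartile factors and library totals moved the median log2 fold change of all genes by 0.12 and 0.19. With these and with the offsets for GC content and length, Pik3r1 was -0.62, -0.55 and -0.36 and was not called, Tsc2 was 0.48, 0.56 and 0.50 and was called, and Mtor turned to 0.012, 0.081 and 0.15. Akt2 was 0.35 and 0.42 and called with upper-quartile factors and library totals. The log2 fold change of Tsc1 turned to -0.038 with DESeq2 size factors and with DESeq2, to -0.064 with no filter and to -0.011 with limma voom, and was 0.33 with the offsets and 0.30 with the offsets and the block. The cause of these changes was not tested.

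With the replicate number as a block, meaning a paired fit, Pik3ca was -0.96, Pik3cb 1.08 and Pik3r1 -0.88, Tsc1 turned to -0.010, no call on a member changed, and 9279 genes in all were called against 9462. With the block and the offsets together, Pik3r1 was -0.47 and not called, Tsc2 0.49 and called, Mtor 0.15 and Pik3ca -0.50. In a paired sign-flip test the difference in the log2 ratio of Pik3ca to Pik3cb, -2.05, had an exact adjusted p of 0.25, and the smallest p that 5 pairs can give is 0.0625. By medians it was -2.26 (exact permutation test, adjusted p = 0.190, again from the smallest p that the test can give), and that of Pik3ca to Pik3r1 was 0.16.

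With each library left out in turn, the log2 fold change of Pik3r1 ranged from -1.09 to -0.60, that of Akt2 from 0.19 to 0.31, that of Tsc2 from 0.27 to 0.46 and that of Tsc1 from -0.088 to 0.11. The ratio differences ranged from -0.23 to 0.089 for Pik3ca to Pik3r1, from -0.14 to 0.0063 for Akt1 to Akt2 and from -0.52 to -0.27 for Tsc1 to Tsc2. On the coding length the shares of Pik3ca were 41.1% (luminal) and 73.2% (basal). Of 556 alternative values for 28 named pathway genes, 552 kept direction and call, 4 lost the call (in Rictor) and 0 turned. Of the 6 receptors and adaptors 5 were called with library totals only and with the offsets, against 3. Precision of low genes such as Pik3cg, Klf15 and Ddit4l is limited by their few counts in the lower group.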

Other observations

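The Ragulator and Rag genes, which hold mTOR complex 1 at the lysosome when amino acids are plentiful, did not move as a unit. They were chosen after their values were seen. Lamtor2 was at 67.3 CPM in luminal and 15.9 CPM in basal cells (log2 fold change 2.08, edgeR adjusted p = 6.88e-07), Lamtor4 at 41.0 and 10.6 CPM (1.95, edgeR adjusted p = 7.82e-06), Lamtor5 at 32.8 and 12.3 CPM (1.42, edgeR adjusted p = 0.00023) and Lamtor1 at 52.5 and 33.6 CPM (0.64, edgeR adjusted p = 0.000505). With offsets for GC content and length these 4 changes were 1.09, 1.20, 0.68 and 0.36, and all were still called. Rraga was lower in luminal cells, at 59.5 and 151.9 CPM (-1.35, edgeR adjusted p = 7.27e-06), as was Rragd, at 12.2 and 31.4 CPM (-1.37, edgeR adjusted p = 0.000201). Both were called with the offsets, at -1.71 and -1.09. Lamtor3 was at 18.6 and 25.7 CPM (-0.46, edgeR adjusted p = 0.0155), and its call was lost with upper-quartile factors (-0.34, edgeR adjusted p = 0.0696) and library totals only (-0.27, edgeR adjusted p = 0.160). Rragc, at 67.9 and 77.9 CPM, was not called (edgeR adjusted p = 0.142), and neither was Rragb, at 0.377 and 0.721 CPM (-0.92, edgeR adjusted p = 0.277).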
